A study of Mus musculus with 9 samples.

Results

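The genes of MHC class II antigen presentation were examined in the livers of mice given an agonist antibody against CD40. The 10 genes were taken by name from the 24341 genes of the deposited expression table. They encode the classical class II chains (H2-Aa, H2-Ab1, H2-Eb1), the peptide exchange factor DM (H2-DMa, H2-DMb1, H2-DMb2), its inhibitor DO (H2-Oa, H2-Ob), the invariant chain (Cd74), and the class II transactivator (Ciita). They were chosen by name and not by a threshold on their values, although earlier results of these data were known. RNA from bulk liver was sequenced in 9 C57BL/6 mice of WT genotype, 48 hours after treatment. The CD40 agonist FGK45 was given to 3 mice (anti-CD40 mice 2, 5, and 9). The other 6 were controls, labeled as treated with PBS (control mice 3, 4, 7, 8, 11, and 12). Age and sex are not given for the single mice, and the methods describe mice of 8 to 12 weeks unless otherwise stated. Mice whose blood B cells did not fall after anti-CD40 were left out of the study's analyses in general, and whether this touched the mice sequenced is not stated. Each library came from 1 labeled mouse, and the labels name no batch.

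MHC class II molecules present peptides from the endosomal pathway to CD4+ T cells. Dendritic cells, B cells, and macrophages carry them constitutively, and in the liver Kupffer cells and sinusoidal endothelial cells can carry them too. An α chain and a β chain assemble in the endoplasmic reticulum with the invariant chain, which blocks the groove and guides the complex to endosomes. Proteases there trim the invariant chain to a short fragment, DM exchanges that fragment for antigenic peptide, and DO restrains DM, chiefly in B cells and some dendritic cells. CIITA does not bind DNA itself. It is recruited to a conserved promoter module, the W, X, and Y boxes, by the RFX complex, CREB, and NF-Y, and IFN-γ can induce Ciita through JAK kinases.

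The promoters are shown first because the module is what the genes that CIITA acts on are known to share, and sequence was not used to choose the members. The RefSeq promoter table (GRCm38.p6, 250 bases before to 50 bases after each start) held an entry for 7 of the members. It held none for H2-Ab1 or Ciita. Cd74 was left out by name before the search, so the counts below say nothing on its promoter. The letters TGATTGG, the core of the Y box, were searched on the strand of the gene. They were found in 6 of these 7 members and in 4.01% of the 32851 promoters in the table, or 7.82% when both strands were searched. In the same 6 members the letters AAC, which lie within the X1 part of the X box, preceded TGATTGG by 22 to 27 bases. That arrangement was found in 0.25% of all promoters on the strand of the gene and in 0.618% on both strands. The range of spacings was set after these promoters were read, so the match is a description. H2-DMa was the exception, with no TGATTGG in its 2 promoter entries. The windows of 5 members and of H2-Eb2, a further class II β chain gene that is not a member, are given 5′ to 3′ on the strand of the gene, with AAC and TGATTGG in capitals.
H2-Aa: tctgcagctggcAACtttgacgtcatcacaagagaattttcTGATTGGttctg
H2-Eb1: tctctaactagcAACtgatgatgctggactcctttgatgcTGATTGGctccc
H2-Eb2: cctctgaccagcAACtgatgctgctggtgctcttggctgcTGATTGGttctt
H2-DMb2: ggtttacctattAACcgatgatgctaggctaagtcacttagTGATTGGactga
H2-Oa: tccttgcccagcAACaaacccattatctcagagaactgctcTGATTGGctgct
H2-Ob: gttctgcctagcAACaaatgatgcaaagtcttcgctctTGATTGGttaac
These windows lie at chr17:34287862-34287914 on the minus strand for H2-Aa and on the plus strand for the others. Their positions are chr17:34305766-34305817 for H2-Eb1, chr17:34325533-34325584 for H2-Eb2, and chr17:34145116-34145168 for H2-DMb2. H2-Oa lies at chr17:34092293-34092345 and H2-Ob at chr17:34238808-34238857. The Y box core began 45 bases before the RefSeq start in H2-Oa and 92 bases before it in H2-DMb2, with 50, 59, and 61 bases in H2-Aa, H2-Ob, and H2-Eb1. The last 6 bases of the H2-Oa window lie in the first exon of its GENCODE M21 transcript. H2-DMb1 also had the arrangement, 63 bases before its RefSeq start, but its window lies wholly in an exon of a GENCODE transcript and is not shown.

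Values are FPKM, a fragment count divided by transcript length and by the size of the library, which the authors made from 3′ libraries. Because 3′ reads do not grow with transcript length, FPKM was compared between mice and not between genes. The table has a floor of 0.01, and between 14684 and 15545 genes stood above it in each mouse. Read totals are not given. From the steps between low values, the depth of the libraries relative to their geometric mean was 0.87 to 1.13, with the highest value in anti-CD40 mouse 2 and the lowest in control mouse 8. The acute phase genes Saa1, Saa2, and Saa3 held at least 25.4% of the summed FPKM in every anti-CD40 mouse and at most 0.38% in every control mouse. Leaving them out and rescaling moved the median log2 fold change over the genes tested from 0.01 to 0.35. Fold changes given here are from the values as deposited unless another scaling is named, and values without the Saa genes are given relative to that shifted median.

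The class II genes were higher as a group in the livers of anti-CD40 mice. Of the 10 members, 9 passed the filter of a mean FPKM of at least 0.1, and all 9 were higher in the anti-CD40 mice at a limma adjusted p under 0.05, with none lower. In each of these 9 genes the lowest anti-CD40 mouse stood above the highest control mouse. Among all 13807 genes tested, 23.5% were called higher, 21.7% were called lower, and 22.7% had all 3 anti-CD40 mice above all 6 control mice. The log2 fold changes of the 9 genes, on the log2(FPKM + 0.1) scale, ran from 1.25 for H2-DMb1 to 3.17 for Cd74 and 3.16 for H2-Oa, with a median of 2.44, against a median of 0.01 over all genes tested. A rise of at least 2 on that scale was found in 8 of the 9, and in 5.28% of all genes tested. The 2-sided exact permutation p was 0.0238 for each of the 9 genes, the smallest that 3 mice against 6 can give. In bulk liver, more cells that carry class II and more class II RNA per cell cannot be told apart.

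**Figure D1:**
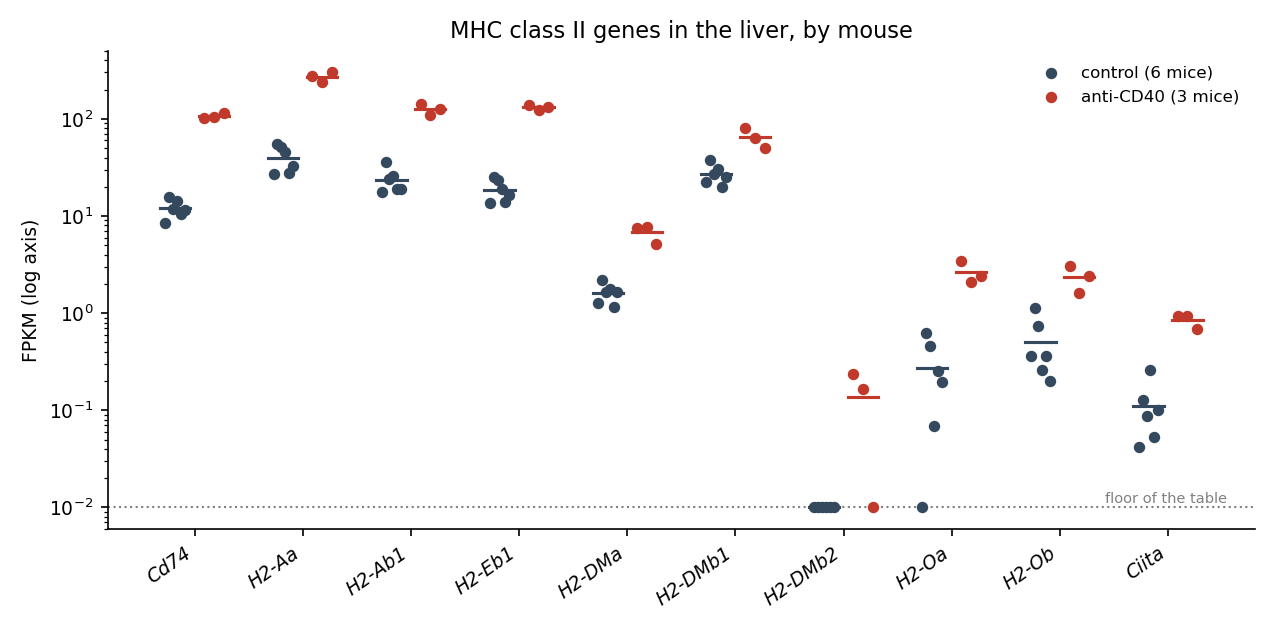
FPKM (log axis) of the 10 class II genes in each of 6 control and 3 anti-CD40 mice. Points are mice, bars are group means, and the dotted line is the floor of the table at 0.01. The groups are separate in every gene except H2-DMb2, and levels should be read within a gene, since FPKM from 3′ libraries is not comparable between genes.

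Ciita, the gene of the transactivator, was low in every control liver. Anti-CD40 mice 2, 5, and 9 had 0.936, 0.937, and 0.684 FPKM. In the control mice Ciita ranged from 0.0422 to 0.26, with a median of 0.0939. All 3 anti-CD40 mice were thus above control mouse 8, the highest control. These values rest on few reads. The whole reads recovered for Ciita were 103, 97, and 66 in the anti-CD40 mice, against 4 to 22 in the control mice, as the smallest whole numbers that match the steps. The log2 fold change was 2.23 (SE 0.29, limma adjusted p = 0.00016), and because Ciita lies near the pseudocount this value moved from 0.74 with a pseudocount of 1 to 3.03 with 0.01. Ciita lies on chromosome 16 (chr16:10480072-10527640, mm10), apart from the genes it controls, and its table entry stops 778 bases short of the 3′ end of the GENCODE gene.

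The classical class II chain genes rose by 5.43 to 7.20 times. H2-Aa, the α chain of I-A, measured 275, 240, and 300 FPKM in anti-CD40 mice 2, 5, and 9, against 27 to 55.5 in the control mice with a median of 39.2. The group means were 272 ± 30.4 (SD, n = 3) and 40.0 ± 12.4 (SD, n = 6). The lowest anti-CD40 value was therefore more than 4 times the highest control value. H2-Ab1, the β chain of I-A, measured 141, 110, and 125 FPKM in the anti-CD40 mice, against 17.7 to 35.9 in the control mice, with a median of 21.5. H2-Eb1, the β chain of I-E, measured 139, 123, and 132 FPKM in the anti-CD40 mice, against 13.5 to 25.5 in the control mice, with a median of 17.7. Neither gene had an overlap between groups, and control mouse 4 was the highest control in all 3 chain genes. The log2 fold changes were 2.81 for H2-Aa (SE 0.24, limma adjusted p = 1.05e-05), 2.44 for H2-Ab1 (SE 0.21, limma adjusted p = 1.09e-05), and 2.85 for H2-Eb1 (SE 0.21, limma adjusted p = 3.78e-06). Among all genes tested, 2.45%, 3.54%, and 2.37% had a larger log2 fold change than H2-Aa, H2-Ab1, and H2-Eb1, respectively. C57BL/6 mice are known to lack a functional Ea gene, so that the I-E β chain has no partner there. The entry H2-Ea-ps, the pseudogene of that α chain, was listed at the floor in all 9 mice.

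Cd74, the invariant chain gene, had one of the 2 largest log2 fold changes among the 9 members tested, beside H2-Oa. It measured 101, 105, and 115 FPKM in anti-CD40 mice 2, 5, and 9. The control mice ranged from 8.55 to 15.6 FPKM with a median of 11.6. The anti-CD40 mice lay close together, the highest being 1.13 times the lowest, and the control mice spread 1.82-fold. The log2 fold change was 3.17 (SE 0.18, limma adjusted p = 7.69e-07), or 8.99 times on the linear scale, and 1.65% of all genes tested had a larger one. The order of Cd74 and H2-Oa was not settled, since H2-Oa stood at 1.54 with a pseudocount of 1 and at 3.93 with 0.01, and Cd74 at 3.07 and 3.18.

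The genes of DM, which exchanges the invariant chain fragment for peptide, rose less evenly. H2-DMa, its α chain, measured 7.58, 7.69, and 5.10 FPKM in the anti-CD40 mice, against 1.17 to 2.17 in the control mice, with a median of 1.65. H2-DMb1, a β chain, measured 79.8, 62.8, and 50.6 FPKM in the anti-CD40 mice, against 19.7 to 38.0 in the control mice, with a median of 26.2. In both genes anti-CD40 mouse 9 was the lowest treated mouse and still exceeded control mouse 4, the highest control. H2-DMa had a log2 fold change of 2.01 (SE 0.21, limma adjusted p = 3.43e-05), and H2-DMb1 had the smallest of the 9 members tested at 1.25 (SE 0.21, limma adjusted p = 0.000793). With a pseudocount of 1, Ciita at 0.74 and H2-Ob at 1.16 fell below H2-DMb1 at 1.22. The third DM gene, H2-DMb2, is a second β chain gene next to H2-DMb1. It measured 0.234 and 0.166 FPKM in anti-CD40 mice 2 and 5, was at the floor in mouse 9, and was at the floor in all 6 control mice. As the smallest whole numbers that match the steps, these values stand for 3, 2, and 0 reads against 0 reads in every control mouse. Multiples of these numbers would match as well, since only mice 2 and 5 stood above the floor. H2-DMb2 was too low for a fold and did not pass the filter (2-sided exact permutation p = 0.167). The transcripts of H2-DMb1 and H2-DMb2 were 95.3% identical over 1206 aligned bases. A separate alignment of the last 300 bases of each, which 3′ libraries mostly read, matched 140 bases (90% identical). The table entry of H2-DMb2 ends 460 bases before the 3′ end of its GENCODE gene. How the authors' processing assigned reads shared by the pair is not stated, so the split between these 2 genes is uncertain.

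The genes of DO, the inhibitor of DM, rose from levels near the lower limit of the table. H2-Oa, its α chain, measured 3.48, 2.1, and 2.44 FPKM in anti-CD40 mice 2, 5, and 9. In the control mice it ranged from the floor of 0.01, in mouse 3, to 0.632 in mouse 4, with a median of 0.224. These values correspond to 65, 37, and 40 reads after anti-CD40, with 0 to 11 reads in the control mice. H2-Ob, its β chain, measured 3.04, 1.61, and 2.40 FPKM in the anti-CD40 mice, against 0.202 to 1.12 in the control mice, with a median of 0.363. Its reads were 166, 83, and 115 in the anti-CD40 mice, against 9 to 57 in the control mice. The groups of H2-Ob lay near each other, since anti-CD40 mouse 5 stood at 1.61 FPKM and control mouse 4 at 1.12. The log2 fold change was 3.16 for H2-Oa (SE 0.54, limma adjusted p = 0.00083) and 2.15 for H2-Ob (SE 0.42, limma adjusted p = 0.002). Their standard errors were the largest among the members. With a pseudocount of 1 the values fell to 1.54 for H2-Oa and 1.16 for H2-Ob. H2-Oa shares its table position with the antisense gene BC051537, which reached at most 0.0668 FPKM, and the strand setting of the authors' counting is not stated, so reads of the pair cannot be told apart. The entry of H2-Ob stops 8506 bases short of the 3′ end of its GENCODE gene.

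Among the control mice, the members tended to be high in the same animal. Control mouse 4 was the highest control for 8 of the 10 members and mouse 8 for Ciita, with H2-DMb2 at the floor in all. Control mouse 3 was the lowest control for 6 members. Among the anti-CD40 mice, mouse 2 was the highest for 6 members, and the lowest was mouse 5 for 5 members and mouse 9 for 4. The control mice spread more than the treated mice in all 8 members above the floor in every mouse. The highest control exceeded the lowest by 6.16 times in Ciita and 5.53 times in H2-Ob, against 1.37 and 1.88 times among the anti-CD40 mice. A range over 6 mice is compared here with a range over 3, and no test was made. Ciita and H2-Ob had few reads in the control mice, and the part of counting error in that spread was not tested.

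The members were also compared with each other within each mouse, in 8 pairs, as the change of a log2 ratio. H2-DMa rose more than H2-DMb1, with a change of 0.76 and no overlap between the groups (2-sided exact permutation p = 0.0238, adjusted p = 0.0952 over the 8 pairs). H2-Oa rose more than H2-Ob by 1.01, again with no overlap (exact p = 0.0238, adjusted p = 0.0952). Smaller changes were found for H2-Aa against H2-Ab1 (0.37, exact p = 0.0476, adjusted p = 0.0952) and for Cd74 against H2-Aa (0.35, exact p = 0.0476, adjusted p = 0.0952). None of the 8 pairs passed an adjusted p of 0.05, while 4 had an unadjusted exact p under 0.05. With a pseudocount of 1, 4 pairs passed, and only 2 of them were among those 4. H2-DMa to H2-DMb1 and H2-Oa to H2-Ob passed with smaller changes of 0.35 and 0.38. H2-DMb1 to H2-DMb2 and H2-Aa to Ciita passed at 1.06 and 2.05, each with 1 member below 1 FPKM in every mouse. H2-Aa and H2-Eb1 kept the most even ratio, with log2 ratios of 0.97 to 1.19 in the anti-CD40 mice, against 1.0 to 1.26 in the control mice (change -0.03, exact p = 0.738). The ratio of H2-DMa to H2-Oa, the exchange factor and its inhibitor, changed by -1.15 with overlapping groups (exact p = 0.0714, adjusted p = 0.114), and with a pseudocount of 1 that change was 0.03. H2-Aa against Ciita changed by 0.58 (exact p = 0.119), and -0.21 with a pseudocount of 0.01. H2-DMb1 against H2-DMb2 changed by 0.29 (exact p = 0.381), a value that rests on the floor of H2-DMb2 and became -0.99 with a pseudocount of 0.01.

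**Figure D2:**
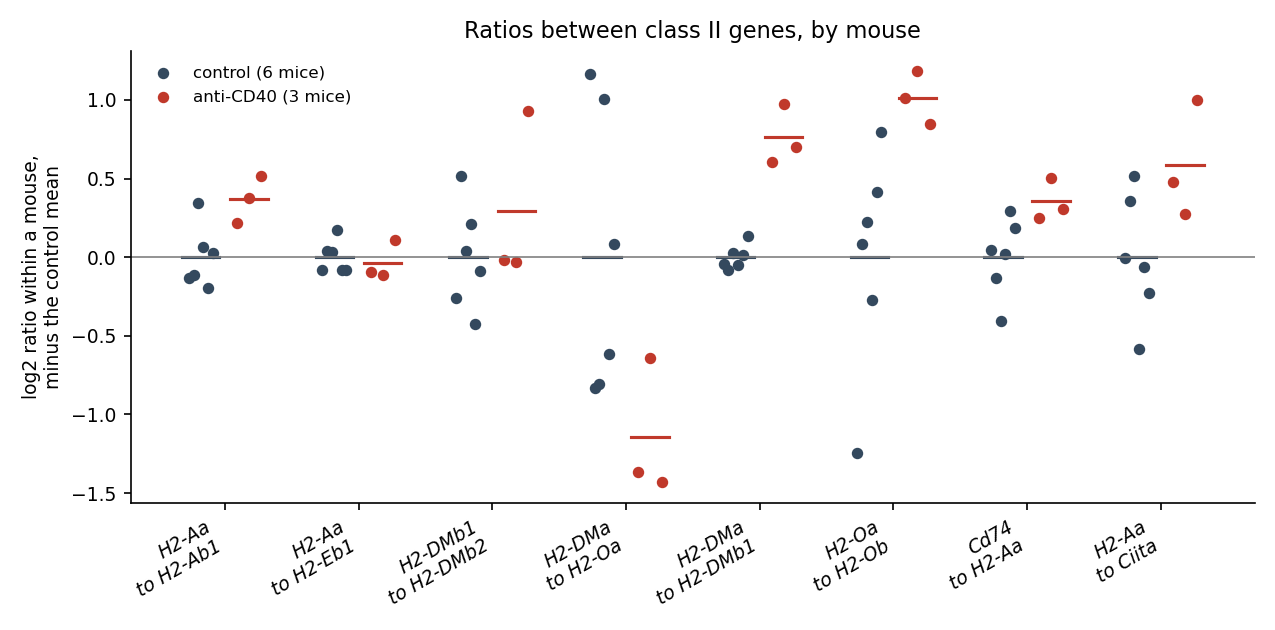
Within-mouse log2 ratio of 8 pairs of class II genes, on the log2(FPKM + 0.1) scale and minus the mean of the control mice. Points are mice and bars are group means. The groups are separate for H2-DMa to H2-DMb1 and for H2-Oa to H2-Ob, and overlap in the other 6 pairs. No pair passed an adjusted p of 0.05, which 2 pairs at the smallest possible exact p cannot do on their own.

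Position was not used to choose the members, and 8 of them lie within 232.8 kb of chromosome 17 (chr17:34083843-34316674, mm10). The table lists 6 other genes that start among them. One is BC051537, which was too low to test. Of the other 5, 4 were higher in the anti-CD40 mice, against 23.5% of all genes tested, and all 4 serve the class I pathway. Tap1 and Tap2 encode the transporter that carries peptides into the endoplasmic reticulum, and their log2 fold changes were 1.88 (SE 0.17, limma adjusted p = 1.45e-05) and 1.0 (SE 0.18, limma adjusted p = 0.00112). Psmb8 and Psmb9 encode immunoproteasome subunits, with log2 fold changes of 1.54 (SE 0.18, limma adjusted p = 6.83e-05) and 1.39 (SE 0.25, limma adjusted p = 0.00121). The members of the region ran from 1.25 to 3.16, so that H2-DMb1 lay within the range of the class I genes and the other tested members above it. Brd2, a bromodomain gene between H2-Oa and H2-DMa, measured 74.8 to 89.3 FPKM in the anti-CD40 mice, against 59.5 to 125 in the control mice (log2 fold change -0.04, SE 0.22, limma adjusted p = 0.902), with 0.33 under quantile normalization and -0.02 relative to the median without the Saa genes. The X and Y box arrangement shown above was found in none of the 4 region genes with a promoter entry.

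**Figure D3:**
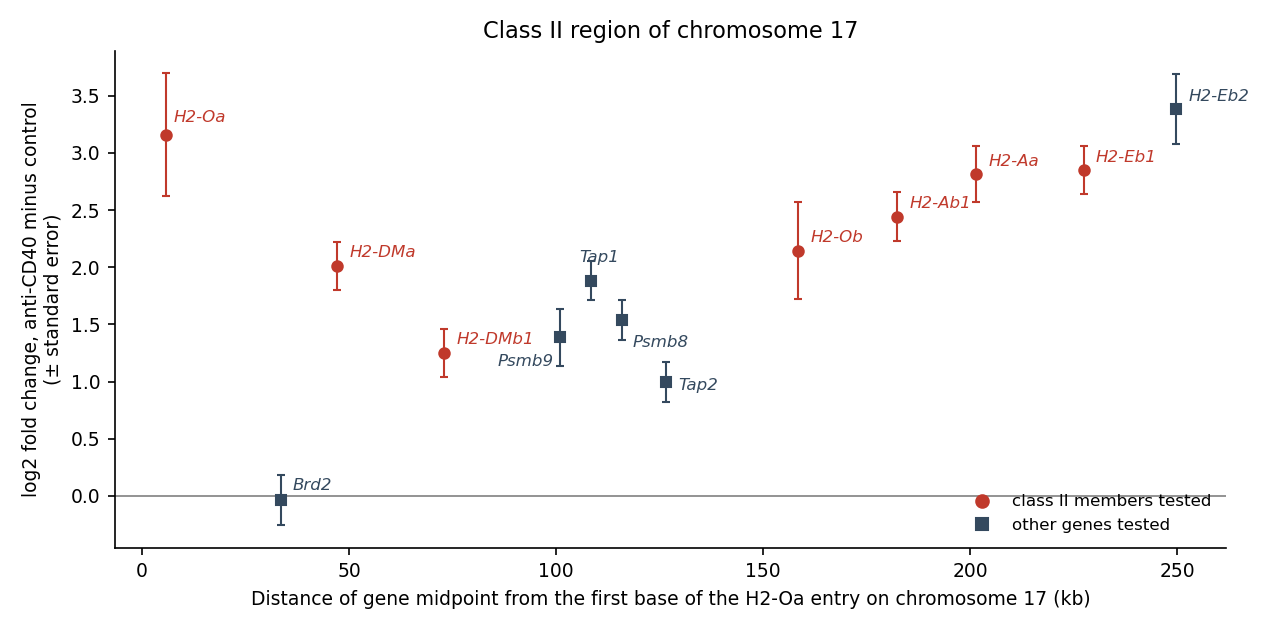
Log2 fold change (anti-CD40 minus control, ± standard error) of the genes tested in the class II region and of H2-Eb2 just beyond it, by distance in kb along chromosome 17. Class II members are circles and other genes are squares. All but Brd2 lie at about 1.0 or above; Brd2 is at -0.04, and at 0.33 under quantile normalization and, before the shift of the median is taken off, without the Saa genes.

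The other genes of the pathway were taken from lists compiled from general knowledge, and 30 of them were tested. Of these, 19 were higher and 3 lower in the anti-CD40 mice, with a median log2 fold change of 0.65. Over all genes tested, 23.5% were called higher and 21.7% lower, and the counts within the groups below stand beside the same shares. The further β chain gene H2-Eb2 had a log2 fold change of 3.38 (SE 0.31, limma adjusted p = 1.41e-05), which was 1.30 with a pseudocount of 1 and 4.66 with 0.01. It measured 2.12, 1.36, and 1.54 FPKM in the anti-CD40 mice, against at most 0.152 in the control mice, from 90 to 149 reads and 0 to 10 reads. Its control mean of 0.0757 FPKM was below the filter, which it passed only through the anti-CD40 mice. H2-Eb2 and H2-Eb1 transcripts were 84.1% identical over 774 aligned bases. A separate alignment of the last 300 bases of each matched 43 bases, 95.3% identical.

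The factors that assemble on the class II promoters and the IFN-γ receptor pathway made up 13 tested genes, of which 8 were higher and 1 was lower. The receptor chain genes Ifngr1 and Ifngr2 rose by 0.84 (SE 0.16, limma adjusted p = 0.00156) and 1.43 (SE 0.13, limma adjusted p = 1.66e-05) on the log2 scale. The kinase genes Jak1 and Jak2 rose by 0.45 and 0.85. The promoter-binding factors themselves moved in different directions. The NF-Y subunit gene Nfya rose by 1.08 (limma adjusted p = 0.00516), Nfyb fell by 0.50 (limma adjusted p = 0.00369), and Nfyc had a log2 fold change of -0.18 (limma adjusted p = 0.459). Relative to the shifted median, Nfyb was at -0.48 and Nfyc at -0.17 without the Saa genes, and under quantile normalization they were at -0.28 and -0.24. Of the RFX genes, Rfx5 was called at 0.41 (limma adjusted p = 0.0383), whereas Rfxap and Rfxank had values of -0.43 (limma adjusted p = 0.0897) and 0.05 (limma adjusted p = 0.809), the latter turning to -0.30 under quantile normalization. Creb1 was called at 0.39 (limma adjusted p = 0.0383). The calls of Rfx5 and Creb1 were each lost without any 1 anti-CD40 mouse, that of Rfx5 also without control mouse 8, 11, or 12, and that of Creb1 without control mouse 3, 7, or 12. Both were also lost under quantile normalization, at 0.28 and 0.29. Rfxap was called lower, at -0.59, under quantile normalization and, at -0.53, without control mouse 7. Irf1, which acts on the Ciita promoter, had overlapping groups, with 41.9 to 52.8 FPKM in the anti-CD40 mice, against 30.6 to 52.3 in the control mice (log2 fold change 0.33, limma adjusted p = 0.179), and was called at 0.59 under quantile normalization.

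Endosomal processing of antigen and of the invariant chain was represented by 10 tested genes, with 5 higher and 1 lower. Ifi30, a thiol reductase that opens disulfide bonds of antigens, had the largest change, from 10.7 to 19.9 FPKM in the control mice to between 74.5 and 85.3 in the anti-CD40 mice (log2 fold change 2.32, limma adjusted p = 5.09e-06). Ctss, the main invariant chain protease of antigen-presenting cells, measured 181, 158, and 140 FPKM in the anti-CD40 mice, against 41.4 to 69.6 in the control mice (log2 fold change 1.52, limma adjusted p = 4.03e-05). Sppl2a, an intramembrane protease that clears the last invariant chain fragment, rose by 0.90 (limma adjusted p = 0.00011). Ctsz and Ctsb, lysosomal cathepsins, rose by 1.07 and 0.36, the call of Ctsb being lost without anti-CD40 mouse 2 or 9. Ctsh, an aminopeptidase, fell by 0.44 (limma adjusted p = 0.00775), and was at -0.05 and not called under quantile normalization. Ctsl, Ctsd, Lgmn, and Cst3 did not pass, with log2 fold changes of 0.54, 0.40, 0.40, and -0.33, and Cst3 turned to 0.13 under quantile normalization. Under quantile normalization Ctsl and Ctsd were called higher, at 1.04 and 0.87. Without control mouse 4, Ctsl was called at 0.68 and Lgmn at 0.57, Ctsd was called at 0.59 without anti-CD40 mouse 9 and 0.49 without control mouse 12, and Cst3 was called at -0.40 without control mouse 8.

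Regulators of class II at the cell surface moved in opposite directions. March1 encodes a ubiquitin ligase that sends class II and CD86 for degradation in antigen-presenting cells, and its log2 fold change was 1.06 (SE 0.22, limma adjusted p = 0.00251). March8, its close relative with broad expression, fell by 1.08 (SE 0.20, limma adjusted p = 0.0015). Cd83, whose product opposes March1, measured 9.45, 8.90, and 12.2 FPKM in the anti-CD40 mice, against 0.546 to 2.16 in the control mice (log2 fold change 3.06, limma adjusted p = 5.24e-05). Cd40, the target of the antibody, rose from at most 2.13 FPKM in the control mice to 30.9, 20.1, and 21.8 in the anti-CD40 mice (log2 fold change 4.10, limma adjusted p = 2.9e-06). Of the costimulators that act beside class II, Cd80 passed the filter only through the anti-CD40 mice, with a control mean of 0.0539 FPKM. Cd80 had a log2 fold change of 2.32 (limma adjusted p = 5.12e-05) from 19 to 21 reads against 0 to 3. Cd86 had one of 0.76 (limma adjusted p = 0.0476) with overlapping groups, and lost the call without each mouse other than control mice 4 and 7.

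**Figure D4:**
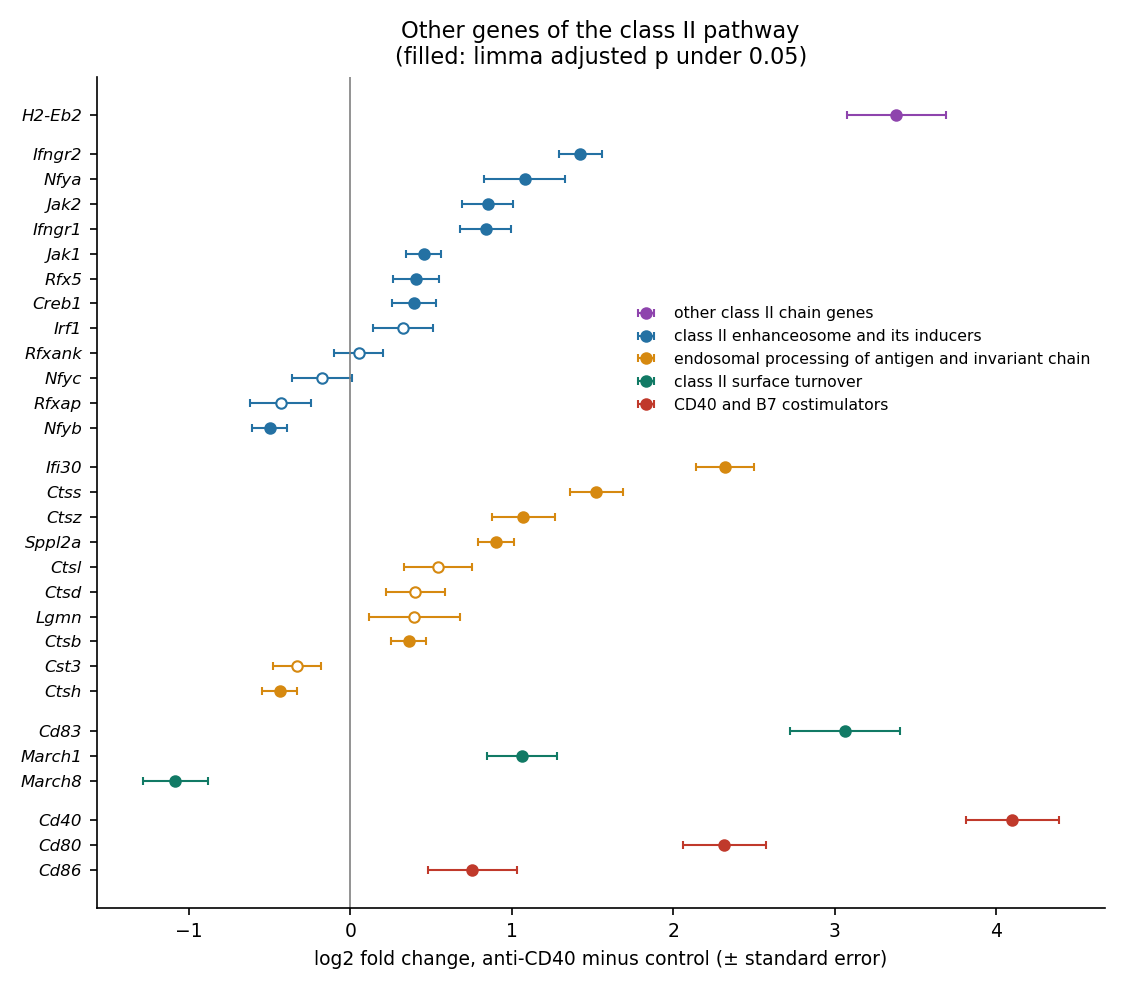
Log2 fold change (anti-CD40 minus control, ± standard error) of other class II pathway genes tested, in 5 groups by color. Filled points passed a limma adjusted p of 0.05, and 1 of the 19 genes called higher is not drawn; of the 3 lower, Ctsh lost the call under quantile normalization, where the signs of Cst3 and Rfxank also changed. Leaving out the Saa genes shifts all values by about 0.35, which turns Nfyc and Cst3 positive before that shift is taken off.

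Because several kinds of cell carry class II, lists of marker genes were set beside the members. Over all genes tested, 23.5% were called higher and 21.7% lower. Some markers passed the filter only through the anti-CD40 mice, Cd79a and Flt3 among them, with control means of 0.0878 and 0.0481 FPKM. All 10 B cell markers tested were higher, and their summed FPKM was 34.9 to 51.2 in the anti-CD40 mice, against 2.22 to 9.42 in the control mice. Ms4a1, which encodes CD20, measured 17.4, 14.3, and 13.2 FPKM in the anti-CD40 mice, against at most 2.14 in the control mice. Of 9 conventional dendritic cell markers tested, 8 were higher, 5 of them with no overlap between the groups, against 22.7% of all genes tested. Their summed FPKM was 27.8 to 33.7 against 6.75 to 18.3. The listed marker Cd209a, below the filter, went the other way, at the floor in every anti-CD40 mouse and at 0.0414 to 0.264 FPKM in the control mice. Itgax, also found on other myeloid cells, had a log2 fold change of 4.21, whereas the dendritic cell factor Zbtb46 had one of 0.71 and the cross-presenting cell marker Xcr1 one of -0.05 (limma adjusted p = 0.896). Plasmacytoid dendritic cell markers were higher in 5 of 6, 4 of them with no overlap, with sums of 20.2 to 32.0 against 7.38 to 11.4. The highest of these, in mouse 5, held 11.8 FPKM of Klk1 against 1.42 and 1.38 in mice 2 and 9, and without Klk1 the sums were 18.8 to 20.2 against 7.14 to 10.9. Most of the remainder was Tcf4 and Spib. The defining marker Siglech had overlapping groups, with 25 to 40 reads against 12 to 31 (log2 fold change 0.67, limma adjusted p = 0.0485). Ccr9 was not called (0.37, limma adjusted p = 0.29). Of 10 monocyte and macrophage markers, 7 were higher and 1 was lower, with sums of 303 to 424 against 42.3 to 77.1. Ly6c2, a marker of inflammatory monocytes, stood at 51.7 to 72.0 FPKM against at most 2.51. Csf1r, also a defining marker of this list, had overlapping groups and was not called (log2 fold change -0.62, limma adjusted p = 0.0837). Adgre1 was the gene called lower, at -1.49 (limma adjusted p = 0.00209), and Fcgr1 was not called. The largest part of the sums in the anti-CD40 mice was Lyz2, at 173 to 266 FPKM against 18.4 to 54.1. Kupffer cell markers went the other way, with 8 of 8 lower and sums of 57.9 to 68.5 against 334 to 496. Clec4f, a defining Kupffer cell gene, was at the floor, 0.218, and 0.0938 FPKM in anti-CD40 mice 2, 5, and 9, against 15.3 to 24.8 in the control mice.

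Sinusoidal endothelial markers had overlapping sums of 99.5 to 106 FPKM in the anti-CD40 mice, against 105 to 132 in the control mice, with 3 of 9 genes higher and 4 lower. T cell markers were higher in 8 of 9 and neutrophil markers in 8 of 8, and the neutrophil sums were 4210 to 5200 FPKM against 18.4 to 156. Nearly all of the neutrophil sums was S100a8 and S100a9. Ngp, Ltf, and Cxcr2 passed the filter only through the anti-CD40 mice, with control means of 0.0902, 0.018, and 0.0556 FPKM. The same held for the T cell marker Cd8a (0.0946 FPKM), so these counts were set in part by the filter. The listed neutrophil markers Mpo and Elane were below the filter and had overlapping groups. Plasma cell markers were higher in 3 of 6 with overlapping sums. Most of each sum was Sdc1, which was not called, at 98.7 to 123 FPKM against 118 to 155, the highest in control mouse 4. Mzb1 stood at 41.2 to 65.7 FPKM against at most 6.51 (log2 fold change 4.16, limma adjusted p = 3.39e-05). Irf4 and Prdm1 also had separate groups, Irf4 passing the filter only through the anti-CD40 mice (control mean 0.0378 FPKM). Hepatocyte markers, the check on the labeled tissue, were abundant in every mouse, with 8 of 10 lower and 1 higher. Albumin (Alb) stood at 774 to 1070 FPKM in the anti-CD40 mice, against 4060 to 6630 in the control mice. Cholangiocyte markers were higher in 2 of 5, with sums of 68.6 to 98.5 against 8.88 to 17.6. Most of these sums was the 2 genes called, Sox9 (48.5 to 64.8 FPKM against 3.17 to 8.23) and Spp1 (15.6 to 31.8 against 2.37 to 8.28). Krt19, Krt7, and Epcam had overlapping groups and were not called. Pancreatic acinar markers, genes of digestive enzymes, were called in 1 of 10, and their sum was 1210 FPKM in anti-CD40 mouse 5 against 28.0 and 33.8 in mice 2 and 9 and 70.8 to 190 in the control mice. Nearly all of the lower sums was Cela1, and without it the list stood at 894 FPKM in mouse 5, at 0.996 and 4.51 in mice 2 and 9, and at 1.24 to 2.31 in the control mice. Markers named beyond the defining ones, among them Klk1, Cela1, Cd209a, Mpo, and Elane, were singled out after their values were seen. Control mouse 4, the highest control for most class II members, was also the highest control for the sums of the B cell, both dendritic cell, neutrophil, plasma cell, and cholangiocyte lists. The part of these cell types in the class II values was not tested. Leaving out control mouse 4 and anti-CD40 mouse 5 together, an alternative chosen after the data were seen, left all 9 members called, with log2 fold changes of 3.01 for H2-Aa, 3.26 for Cd74, and 2.62 for H2-Ob.

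**Figure D5:**
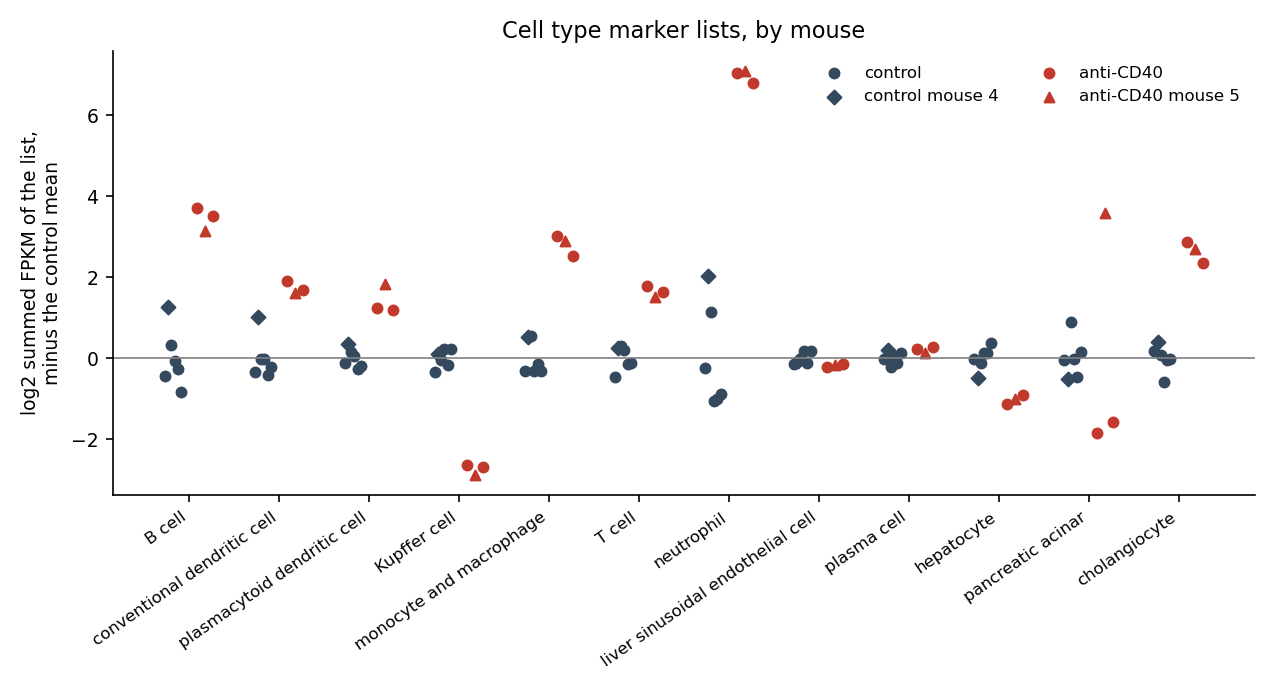
Log2 of the summed FPKM of 12 cell type marker lists in each mouse, minus the control mean. Control mouse 4 is drawn as a diamond and anti-CD40 mouse 5 as a triangle. The B cell, dendritic cell, monocyte and macrophage, T cell, neutrophil, and cholangiocyte lists are higher in every anti-CD40 mouse, the Kupffer cell and hepatocyte lists are lower, and the pancreatic acinar list stands out in mouse 5 alone. Most of the cholangiocyte sums is Sox9 and Spp1, and most of the plasma cell sums is Sdc1.

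Finally, the genes most like 2 of the members were listed, as the root mean square difference over the 9 mice of log2(FPKM + 0.1) centered on the control mean. For Cd74 the 5 nearest genes outside the members were Apitd1 (0.152), Dcstamp (0.175), Spn (0.178), Apobec3 (0.185), and Defb1 (0.189). Dcstamp passed the filter only through the anti-CD40 mice, with a control mean of 0.0284 FPKM, so its distance depends on the pseudocount. The member nearest to Cd74 was H2-Eb1, at rank 19 with 0.257, followed by H2-Aa at rank 29 with 0.282. H2-DMb1 stood farthest at rank 1329 with 1.13. For H2-Ob the 5 nearest were Tbc1d10c (0.259), Gbp3 (0.263), Rab8b (0.263), Mx1 (0.266), and Gpr171 (0.269). The nearest member to H2-Ob was H2-Ab1, at rank 157 with 0.467, and its partner chain H2-Oa was at rank 1191 with 0.791. Such likeness is set mostly by the size of the change between the groups and describes these 9 mice.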

How the data were processed

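Libraries were made with a QuantSeq 3′ kit from liver RNA of 9 mice. The authors aligned reads to mm10 with STAR (BaseSpace RNA-Seq Alignment 1.1.0, 14 mismatches allowed) and deposited FPKM from Cufflinks and CuffDiff (BaseSpace Cufflinks Assembly & DE 2.1.0), with a floor of 0.01 and failed estimates marked. The annotation and the strand setting are not given in the sources used here. The 15 genes with a failed estimate, none a member, were left out.

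FPKM was used without further scaling. Genes with a mean of at least 0.1 (13807) were fitted as log2(FPKM + 0.1) with limma 3.58.1 (R 4.3.3, lmFit, eBayes with trend), 2-sided, Benjamini-Hochberg over all genes tested, called at 0.05. H2-DMb2 fell below the filter. Single members and ratios used exact permutation tests over all 84 ways to divide the mice. Whole reads were recovered from the steps of low values, as the smallest whole numbers that match. Of 2952 low genes, 85.7% came out whole in every mouse within 0.05 read. No count test was run, since abundant members gave no whole reads. A read total is unknown, so no counting interval is given. p-values measure the spread between the mice sequenced.

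The members, lists, and tests were chosen with earlier results of these data known, and the promoter search after the promoters were read. All members and pathway and region genes could be named, with defining markers of each cell type and the 5 genes nearest to Cd74 and to H2-Ob. Some genes counted in the lists are not reported here. Gene positions are those of the table, with starts counted from 1, and RefSeq GRCm38.p6 and GENCODE M21 share its build. Alternatives were a pseudocount of 1 or 0.01, a filter at a mean of 1 or none, quantile or median of ratios scaling, leaving out the 3 Saa genes, eBayes without the trend or robust, array weights, an adjusted p under 0.01, and leaving out each mouse. Python 3.11.15, numpy 2.4.6, pandas 2.3.3, scipy 1.17.1, and matplotlib 3.10.9 did the remaining steps, and the scripts were tested on simulated data.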

Additional observations from a re-analysis of the deposited data

Results flagged for a closer look

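Values of single control mice were compared with the gap expected in 6 samples (Dixon's critical value 0.625), over 56 genes and lists, of which chance alone would give 2.8. Of these, 3 exceeded it. The summed conventional dendritic cell markers were 18.3 FPKM in control mouse 4, with the next mouse at 8.92, a gap of 0.813 of the range. Most of that was 1 gene, Cd24a, at 10.5 FPKM in mouse 4 and at most 3.06 in the other controls, and without it the sums were 7.84 and 6.50, a gap of 0.382. Ctsd was 319 FPKM in control mouse 12 and 248 in the next, a gap of 0.681. Pancreatic acinar markers summed to 190 FPKM in control mouse 7 and 112 in the next, a gap of 0.659, of which Cela1 alone made 188 and 110 FPKM. Without Cela1 the highest sum was 2.31 FPKM, in control mouse 8, and the gap 0.320. Both genes were chosen after their values were seen. No member of the class II group was among them.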

How the results depend on the processing

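The 9 class II members tested were called higher under every alternative run, except that Ciita was not tested with a mean FPKM of at least 1, which left 8. Their log2 fold changes ranged most in Ciita (0.74 to 3.03) and H2-Oa (1.54 to 3.93), both by pseudocount, and least in H2-Eb1 (2.76 to 3.21), and the largest adjusted p of any member was 0.0145, for H2-Ob. Leaving out each mouse gave 9 members, 15 to 21 pathway genes higher and 3 to 4 lower, 4 region genes higher, 0 ratios, and 7 to 8 marker lists with higher, separate sums. The exact test of single members went from 9 members to 0 without any 1 anti-CD40 mouse, because 2 mice against 6 cannot go below 0.0714. For the same reason, the 0 ratios without an anti-CD40 mouse was fixed in advance. With a pseudocount of 1, 4 ratios passed, and without the Saa genes 22 pathway genes were higher and 1 lower. That rescaling moved the median of all genes to 0.35, so its counts and signs follow in part from a shift shared by all genes. Signs turned in genes and ratios that were not called. Brd2 became 0.33 under quantile normalization and without the Saa genes, and 0.080, 0.014, 0.0020, and 0.0043 without control mouse 3, anti-CD40 mouse 9, control mouse 11, and control mouse 12 (range over all mice left out -0.13 to 0.080). Rfxank became -0.30 under quantile normalization and -0.011 without anti-CD40 mouse 9 (up to 0.12 without mouse 5), Cst3 0.13 and 0.036 under quantile normalization and without the Saa genes, and Nfyc 0.18 without them. Relative to the shifted median, Brd2, Cst3, and Nfyc were at -0.02, -0.31, and -0.17 without the Saa genes. The H2-DMa to H2-Oa ratio became 0.034 with a pseudocount of 1, and with 0.01 H2-DMb1 to H2-DMb2 became -0.99 and H2-Aa to Ciita -0.21. Without anti-CD40 mouse 9, H2-DMb1 to H2-DMb2 was -0.024 (up to 0.46 without mouse 5), and H2-Aa to H2-Eb1 was 0.0053 without anti-CD40 mouse 5 and 0.00047 without control mouse 8 (down to -0.11 without anti-CD40 mouse 9). No paired analysis was possible because the groups share no mouse number. Depth limits the low members, since Ciita, H2-Oa, and H2-Ob had at most 22, 11, and 57 reads in any control mouse.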
